A study of Homo sapiens with 9 samples.

Results

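Small nucleolar RNA (snoRNA) host genes are genes whose introns carry snoRNAs and whose spliced exons form a mostly noncoding RNA of their own. Members were taken by name, as every row called SNHG followed by a number together with GAS5, ZFAS1 and EPB41L4A-AS1, which gave 31 of the 60671 genes in the table. Their RNA was followed in 9 polyA libraries of AC16 cells, a human line derived from ventricular heart cells fused with fibroblasts, and each of 3 culture conditions had 3 libraries. These conditions were low glucose, high glucose, and a combination of high glucose and chrysin, which is a flavonoid found in plants and honey. Neither the sugar concentrations nor the dose or duration of chrysin is stated in the labels. Whether replicates were separate cultures is also unstated, so the tests take account of no spread other than that among libraries, and this may be technical. Only this line was used, and its heart markers were sparse. Of 13 cardiomyocyte markers, 11 had a mean under 1 FPKM (TNNT2, MYH6 and RYR2 among them) with MYL2 and PLN at 0, whereas all 11 fibroblast markers had a mean of 1 FPKM or more.

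snoRNAs are cut out of the introns of a host transcript and guide chemical changes on other RNAs: box C/D snoRNAs direct methylation of ribose, box H/ACA snoRNAs direct pseudouridylation, and the related Cajal body RNAs act on spliceosomal RNAs. What remains of the host is a spliced, polyadenylated RNA with short or no reading frames. Many such RNAs start with a 5′ terminal oligopyrimidine (TOP) tract, the element that ties translation of ribosomal protein messages to growth signals, and many are broken down by nonsense-mediated decay while ribosomes engage them. GAS5 was named for its build-up in growth-arrested cells and is the textbook case of such a host.

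By RefSeq (GRCh38.p14) the spans of 29 of the 31 members hold 146 snoRNAs, made up of 121 of the C/D kind, 21 of the H/ACA kind and 4 Cajal body RNAs. SNHG14, in the imprinted Prader-Willi and Angelman region, holds 83 of them, GAS5 holds 11 and SNHG1 holds 8, while SNHG27 and SNHG28 hold none. RefSeq gave a start for 27 members. In 9 of these (33.3%) the transcript began with C and ran on in C or T for at least 4 bases, against 5.45% of all 35116 RefSeq starts. The motif CTTTT, searched on the strand of the gene from 20 bases before the start to 40 bases from it on, was in 8 of 27 members (29.6%) and in 6.57% of all starts. Over the whole 300 bases around the start and on both strands it was in 55.6% of members and 48.9% of all starts. Starts are printed for 11 members that the results turn on, 6 with such a run and 5 without, so that they can be read beside the values; runs are thus more frequent here than among all members. Each window has 20 bases before the start and 40 from it on. Capitals mark a pyrimidine run from the first base or, where there is none, the CTTTT motif; the windows of SNHG1, SNHG17, SNHG10 and SNHG30 have neither.
GAS5 (chr1:173869006-173869065, minus strand): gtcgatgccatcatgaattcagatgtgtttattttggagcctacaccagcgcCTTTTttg
SNHG1 (chr11:62855846-62855905, minus strand): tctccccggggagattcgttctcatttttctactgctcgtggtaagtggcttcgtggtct
SNHG17 (chr20:38435289-38435348, minus strand): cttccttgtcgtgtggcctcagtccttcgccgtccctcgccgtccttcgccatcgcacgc
SNHG10 (chr14:95534833-95534892, minus strand): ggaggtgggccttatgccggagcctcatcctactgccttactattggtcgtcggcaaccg
SNHG30 (chr17:35568094-35568153, plus strand): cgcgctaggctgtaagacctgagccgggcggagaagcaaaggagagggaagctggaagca
SNHG7 (chr9:136728145-136728204, minus strand): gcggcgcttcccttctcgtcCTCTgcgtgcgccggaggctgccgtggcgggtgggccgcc
SNHG18 (chr5:9546180-9546239, plus strand): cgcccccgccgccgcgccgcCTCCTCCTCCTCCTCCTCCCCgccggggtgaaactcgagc
SNHG4 (chr5:139274081-139274140, plus strand): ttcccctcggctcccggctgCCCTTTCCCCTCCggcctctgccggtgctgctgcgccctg
SNHG32 (chr6:31834896-31834955, plus strand): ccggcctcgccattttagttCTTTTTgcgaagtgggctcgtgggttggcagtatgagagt
SNHG5 (chr6:85678694-85678753, minus strand): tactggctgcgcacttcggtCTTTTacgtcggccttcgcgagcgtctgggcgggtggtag
ZFAS1 (chr20:49278622-49278681, plus strand): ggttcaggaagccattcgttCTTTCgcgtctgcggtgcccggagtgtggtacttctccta
The RefSeq start of GAS5 lies upstream of the gene start in GENCODE 29 (173868882), so the window shown is not that of the shorter transcripts.

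Of the 31 members, 30 were above 0 in at least 1 library and 28 had a mean of at least 0.5 FPKM (fragments per kilobase of gene model, corrected for library size) in at least 1 group and were tested. SNHG27 was at 0 in every library, SNHG28 had at most 1 read in a library, and SNHG22 had 2 to 7 reads (0.122 to 0.424 FPKM). Libraries held 18171842 to 23024300 reads as recovered from the FPKM steps, and the members took 0.104% to 0.124% of them. Mitochondrially encoded genes took 2.79% to 3.04% of reads across both chrysin-free groups and 3.80% to 3.89% with chrysin.

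Levels of the tested members, which FPKM puts on a scale per length, spanned from GAS5 at a mean of 215 FPKM over the 9 libraries to SNHG31 at 0.544. GAS5 stood at rank 529 of the 16996 genes tested and SNHG29 (176 FPKM) at rank 697. SNHG6 (75.6 FPKM), SNHG16 (58.4) and SNHG1 (55.0) followed, and the ranges of SNHG16 (50.7 to 64.4) and SNHG1 (42.6 to 66.6) overlapped. A further group from SNHG7 (37.4) through SNHG3 (35.5), SNHG19 (33.3) and SNHG17 (29.9) to SNHG4 (28.5) also overlapped in their ranges. At the low end SNHG9, SNHG25, SNHG21 and SNHG31 rested on 4 to 40 reads per library. Replicates were close for the well-measured members. The coefficient of variation within a group had a median of 4.8% and a highest value of 14% among the 23 members with a mean of at least 5 FPKM, against up to 58% in the other 5.

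**Figure D1:**
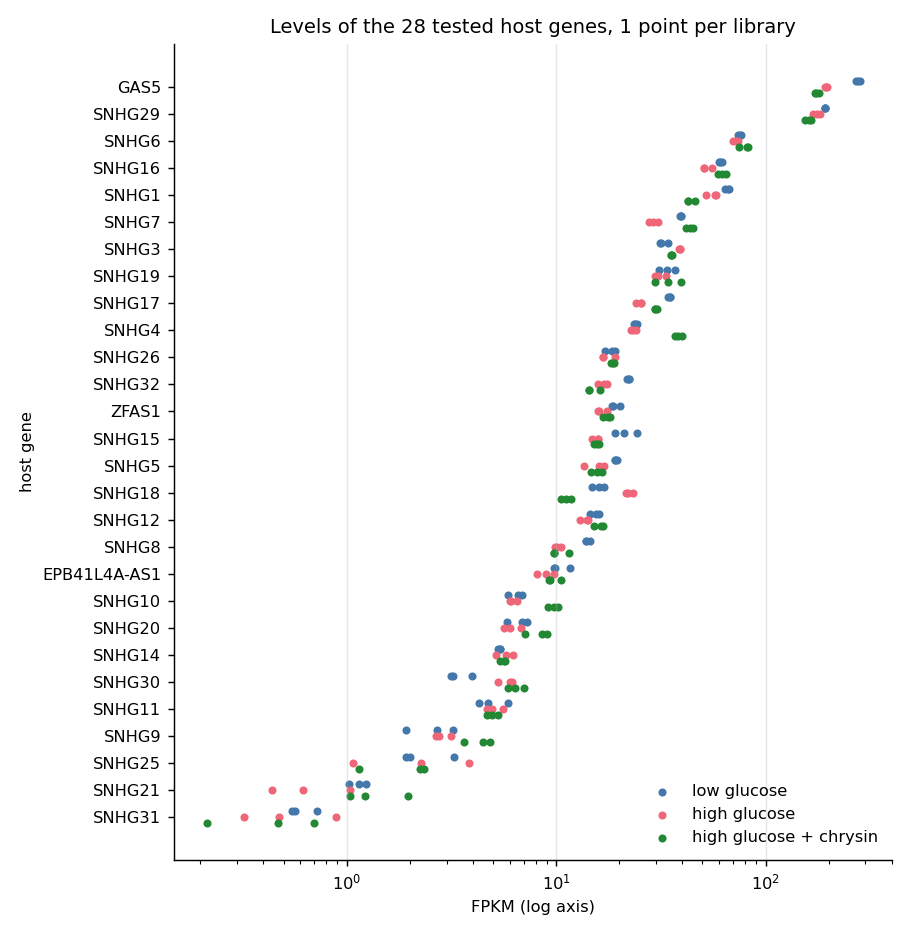
FPKM (log axis) of the 28 tested host genes in each of 9 libraries, 1 point per library, coloured by group and ordered by mean level. GAS5 (172 to 282 FPKM) and SNHG29 (154 to 193) lie above all other members, and points of the members under 5 FPKM scatter most.

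Summed over all 31 members, host RNA stood at 1034, 1016 and 1026 FPKM in the low glucose libraries, at 886, 856 and 869 in high glucose, and at 856, 878 and 891 with chrysin. The low glucose libraries were all above the other 6, whose ranges overlapped. GAS5 and SNHG29 made up 45.2% to 46.3% of this sum in low glucose, 42.1% to 42.8% of it in high glucose and 37.8% to 38.9% of it with chrysin. Without them low glucose had a sum of 556 ± 8.5 FPKM, high glucose one of 500 ± 7.2 and chrysin one of 540 ± 14 (SD, n = 3), so the members other than these were lowest in high glucose.

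**Figure D2:**
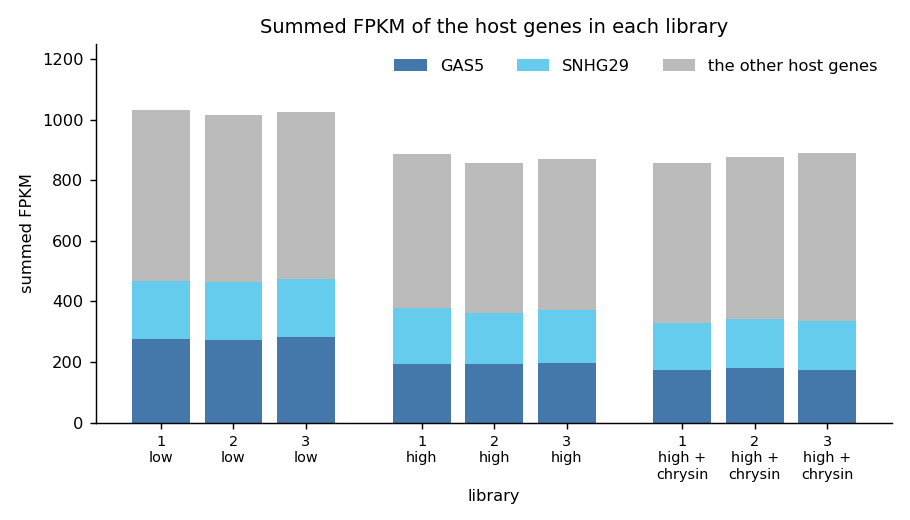
Summed FPKM of the host genes in each of the 9 libraries, split into GAS5, SNHG29 and the other members. The 3 low glucose bars reach 1016 to 1034 FPKM, and the other 6 reach 856 to 891.

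The first comparison set high against low glucose. Of the 28 members 11 were lower in high glucose and 3 were higher, by limma with p-values adjusted over all 16996 genes tested and a threshold of 0.05. Among all genes tested 23.5% were called, 8.91% lower and 14.6% higher, and among the members 50% were called, 39.3% lower and 10.7% higher. Shares over all genes, here and below, include many weakly expressed genes. With the filter raised to a group mean of 5 FPKM, 1517 of 10414 genes were lower and 2459 higher. Of the 24 members then tested, 11 were lower and 3 higher. The median log2 fold change of the members was -0.12, beside 0.02 over all genes. In 17 of the 28 the 3 high glucose values did not overlap the 3 low glucose values, a larger share than the 37.9% of all genes. With median-of-ratios scaling the counts over all genes were 1990 higher and 1870 lower in place of 2488 and 1514, while those of the members stayed at 3 and 11. Leaving out high glucose library 1, whose FPKM sum of 704370 was above the 690851 to 695677 of the others, left 10 members lower and 3 higher. Fibroblast markers summed to 7709 to 8006 FPKM in low and 9103 to 9574 in high glucose, with 3 of 11 higher and 2 lower. Most of that rise was COL1A1, from a mean of 3707 to 5138 FPKM, and the median log2 fold change of the 11 was 0.02, equal to that of all genes. NPPB fell (-0.52) and CD14 rose (0.70) in high glucose, and the part of these markers in the result was not tested.

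GAS5 fell furthest of the called members on the log2 scale and is among the best-measured members. It stood at 275, 271 and 282 FPKM in low glucose (4016 to 4682 reads) and at 194, 193 and 196 in high glucose (3107 to 3614 reads). Every low glucose library was above every high glucose one, with a mean 1.42-fold higher (log2 fold change -0.51 for high against low, SE 0.03, adjusted p = 6.8e-07). GAS5 lies on chromosome 1 (173863900 to 173868882, minus strand, GENCODE 29 on hg38). It overlaps ZBTB37, which is on the other strand and stayed at 3.53 ± 0.18 and 3.48 ± 0.53 FPKM (adjusted p = 0.89). Whether reads were assigned by strand is unstated in the labels.

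Hosts of H/ACA snoRNAs were among those that fell with GAS5. SNHG17, which carries members of the SNORA71 family on chromosome 20 (38420588 to 38435353, minus strand), went from 35.1, 34.3 and 34.9 FPKM in low glucose to 24.0, 25.5 and 25.5 in high glucose. Those groups did not overlap, and the change was -0.47 (SE 0.04, adjusted p = 2.2e-05). SNHG7, host of SNORA17A and SNORA17B on chromosome 9 (136721366 to 136728184, minus strand), went from 39.6, 39.0 and 39.6 to 30.8, 28.9 and 27.8 FPKM (-0.43, adjusted p = 0.00012). SNHG8, host of SNORA24 (chromosome 4, 118278709 to 118279823, plus strand), went from 14.5, 13.9 and 13.9 to 9.90, 10.6 and 10.1 FPKM (-0.45, adjusted p = 0.0010). SNHG15, host of SNORA9 (chromosome 7, 44983023 to 44986961, minus strand), had more spread in low glucose, at 19.1, 24.2 and 21.2 FPKM, and still lay above the 14.8, 15.8 and 15.9 of high glucose (-0.45, adjusted p = 0.0017). Among the 10 tested members that hold H/ACA snoRNAs and no others, 4 fell and 1 rose, beside 8.91% lower and 14.6% higher over all genes.

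Some hosts of C/D snoRNAs fell as well, 6 of the 13 that hold no other kind, with 2 higher. Over all genes tested 8.91% were lower and 14.6% higher. SNHG32, named C6orf48 and typed as protein-coding in GENCODE 29 (chromosome 6, 31834608 to 31839766, plus strand), went from 22.3, 22.4 and 21.9 FPKM to 15.8, 17 and 17.4 (-0.40, SE 0.06, adjusted p = 0.00082). SNHG5 went from 19.6, 19.0 and 19.2 to 17, 13.6 and 16.1 FPKM (-0.31, adjusted p = 0.016), high glucose library 2 being the lowest. SNHG1 went from 66.6, 66.1 and 64.3 to 57.5, 51.8 and 57.7 FPKM (-0.24, adjusted p = 0.0047). SNHG16 went from 60.3, 62.0 and 59.8 to 55.8, 51.1 and 50.7 FPKM (-0.21, adjusted p = 0.0070). In all 4 the groups stood apart with no overlap. The other called falls were those of ZFAS1, the antisense neighbour of ZNFX1, from 20.2, 18.4 and 18.7 to 15.9, 17.5 and 16.1 FPKM (-0.21, adjusted p = 0.025), and of SNHG29, from 192, 193 and 193 to 183, 168 and 176 FPKM (-0.13, adjusted p = 0.019). The call of ZFAS1 was lost without low glucose library 1 (adjusted p = 0.096) or high glucose library 1 (0.068) or 3 (0.072). That of SNHG29 was lost without high glucose library 2 (0.065) and without library 2 (0.053) or 3 (0.056) of low glucose, and that of SNHG5 without low glucose library 1 (0.052).

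The 3 members that were higher in high glucose were SNHG30, SNHG18 and SNHG3. SNHG30, host of SNORD7 (chromosome 17, 35568109 to 35574843, plus strand), rose from 3.97, 3.21 and 3.14 FPKM to 6.13, 5.29 and 6, on 81 to 115 reads in low and 162 to 173 in high glucose. Its mean was 1.69-fold higher (log2 0.68, SE 0.10, adjusted p = 0.0011), the largest rise among the members tested. SNHG18, host of SNORD123 (chromosome 5, 9546200 to 9550609, plus strand), rose from 16.0, 14.8 and 16.9 to 21.5, 22 and 23.2 FPKM (0.47, SE 0.06, adjusted p = 0.00042). SNHG3, host of the pair SNORA73A and SNORA73B (chromosome 1, 28505980 to 28510892, plus strand), rose from 34.4, 31.2 and 31.7 to 38.6, 39.0 and 39.0 FPKM (0.26, adjusted p = 0.0013). In each of the 3 the groups did not overlap. The span of SNHG3 overlaps RCC1 on the same strand, which rose less, from 75.4 to 82.7 FPKM (0.13, adjusted p = 0.020). RCC1 lost its call under median-of-ratios scaling (adjusted p = 0.063), and also without low glucose library 1 (0.072) or 2 (0.059) or library 3 of high glucose (0.066). How reads of such overlaps were assigned is unstated.

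**Figure D3:**
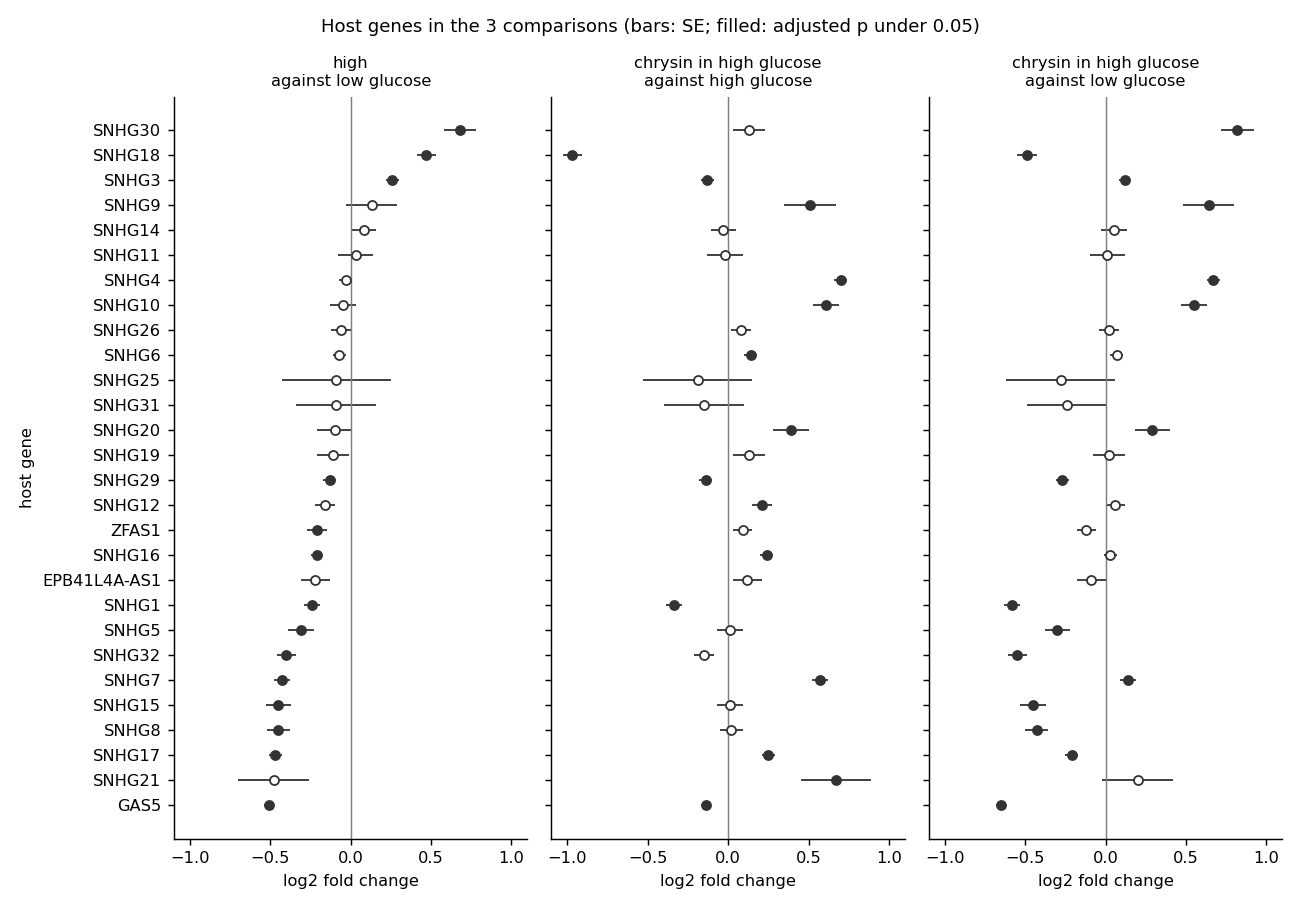
Log2 fold change (on the log2(FPKM + 0.5) scale) of the 28 tested host genes in the 3 comparisons, with bars for the SE and filled points for an adjusted p under 0.05, in 1 order for all panels set by high against low glucose. In the left panel 11 filled points lie below 0 and 3 above, and in the middle panel SNHG18 (-0.97) and SNHG4 (0.70) lie furthest out.

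The second comparison set chrysin in high glucose against high glucose alone. Of the 28 members 10 were higher and 5 were lower, 53.6% in all, where 45.8% of all genes tested were called (24.9% higher and 20.9% lower). The members' share was thus near that of all genes. Their median log2 fold change was 0.08, beside 0.03 over all genes, and 15 of the 28 had groups that did not overlap, as did 54.3% of all genes. Both this comparison and the one above use the high glucose libraries, so their values are not independent. Only 6 members were higher without chrysin library 3, and 9 were higher and 6 lower without high glucose library 1. Fibroblast markers moved with chrysin too: 9 of 11 fell, and their summed level was 6375 to 6537 FPKM against 9103 to 9574 in high glucose, with none of the 11 at 0. Of the 2 cardiomyocyte markers tested, the cardiac actin ACTC1 rose from 0.389 to 4.83 FPKM (2.58, adjusted p = 7.7e-07) and the natriuretic peptide NPPB fell from 13.2 to 10.1 (-0.37, adjusted p = 0.0028). CD14, an immune marker, fell from 3.91 to 1.94 FPKM (-0.85, adjusted p = 3.7e-05). The share of mitochondrially encoded reads given above also differed. The part of any of these in the values below was not tested.

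SNHG18, one of the RNAs that rose in high glucose, showed the largest fall with chrysin among the members. It went from 21.5, 22 and 23.2 FPKM (449 to 521 reads) to 11.1, 10.5 and 11.8 (202 to 269 reads). The high glucose mean was 2-fold that with chrysin (log2 -0.97, SE 0.06, adjusted p = 8.7e-07), and the groups were far apart. SNHG1 fell again, to 45.8, 42.6 and 42.6 FPKM (-0.34, SE 0.05, adjusted p = 0.00016). GAS5 fell to 175, 180 and 172 FPKM (-0.14, adjusted p = 0.0011) and SNHG29 to 154, 161 and 164 (-0.14, adjusted p = 0.0079). SNHG3 fell to 35.2, 35.2 and 35.7 FPKM (-0.13, adjusted p = 0.020). The call of SNHG3 was lost without chrysin library 1 (adjusted p = 0.055) or 2 (0.054) or high glucose library 2 (0.052).

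Among members that rose with chrysin, SNHG4 and SNHG10 had not passed the test between high and low glucose. SNHG4, host of SNORA74A and SNORA74D (chromosome 5, 139274102 to 139284899, plus strand), stood at 24.2, 23.6 and 23.9 FPKM in low glucose and at 23.4, 24.0 and 22.7 in high glucose. With chrysin it stood at 38.3, 39.7 and 36.8, above all 6 other libraries, and 1.64-fold above high glucose (log2 0.70, SE 0.04, adjusted p = 5.6e-07). The span of SNHG4 overlaps the gene of the nuclear matrix protein MATR3 on the same strand. The table lists MATR3 in 2 rows, with group means under 0.03 FPKM in one and of 2.97, 2.12 and 2.52 FPKM in low glucose, high glucose and chrysin in the other. How reads in this overlap were assigned is unstated, and its part in the values of SNHG4 was not tested. SIL1, which overlaps SNHG4 on the other strand, stood at 34.5 and 36.4 FPKM in high glucose and chrysin (adjusted p = 0.31). Both were below its 43.9 FPKM in low glucose (-0.34, adjusted p = 0.0014, and -0.27, adjusted p = 0.0018). SNHG10, host of the Cajal body RNA SCARNA13 (chromosome 14, 95532297 to 95534872, minus strand), stood at 6.85, 6.6 and 5.92 FPKM in low glucose, at 6.08, 6.51 and 6.02 in high glucose and at 9.16, 9.79 and 10.2 with chrysin (1.56-fold, log2 0.61, SE 0.08, adjusted p = 7.8e-05). GLRX5, which overlaps it on the other strand, stood at 35.6 and 34.7 FPKM (adjusted p = 0.45).

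SNHG7, SNHG17 and SNHG16 were lower in high glucose and higher again with chrysin. SNHG7 went from 30.8, 28.9 and 27.8 FPKM to 41.7, 43.7 and 45.2 (0.57, SE 0.05, adjusted p = 3.7e-06), above its low glucose values of 39.0 to 39.6. SNHG17 went to 29.8, 29.8 and 30.2 FPKM (0.25, adjusted p = 0.00030), between its high and low glucose values with no overlap on either side. SNHG16 went to 59.3, 62.2 and 64.4 FPKM (0.24, adjusted p = 0.0014), which overlapped its low glucose range of 59.8 to 62.0.

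Each of the remaining 5 rises with chrysin was lost in at least 1 refit. SNHG12 stood at 14.5, 16.1 and 15.5 FPKM in low glucose. It went from 14, 13 and 14.2 FPKM in high glucose to 16.3, 15.1 and 16.7 (0.21, adjusted p = 0.014, and 0.057 without chrysin library 3 or 0.056 without high glucose library 2). SNHG6, at 76.5, 73.9 and 75.6 FPKM in low glucose, went from 71.9, 73.9 and 69.9 to 74.5, 82.5 and 81.3 FPKM (0.14, adjusted p = 0.017), a call lost without chrysin library 2 (0.070) or 3 (0.065) or high glucose library 3 (0.058). SNHG20, host of SCARNA16 and at 7.27, 5.8 and 6.9 FPKM in low glucose, went from 6.81, 5.64 and 6 to 7.13, 9.01 and 8.57 FPKM (0.39, adjusted p = 0.014, and 0.057 without chrysin library 2 or 0.054 without high glucose library 2). SNHG20 overlaps SEC14L1 on the same strand, which moved the other way, from 161 to 148 FPKM (-0.12, adjusted p = 0.0081). How reads in that overlap were assigned is unstated. SNHG9 stood at 2.7, 1.92 and 3.23 FPKM in low glucose. In high glucose it stood at 3.16, 2.68 and 2.75 FPKM and then at 3.65, 4.45 and 4.84 (20 to 24 and 25 to 40 reads; 0.51, adjusted p = 0.022). Its call was lost with limma voom on recovered reads (0.081), with no filter (0.062), and without chrysin library 2 (0.063) or 3 (0.084) or high glucose library 2 (0.068) or 3 (0.058). SNHG21, host of SCARNA15, stood at 1.15, 1.23 and 1.02 FPKM in low glucose. In high glucose it stood at 0.441, 1.04 and 0.615 FPKM and then at 1.22, 1.04 and 1.96 (6 to 16 and 13 to 29 reads; 0.67, adjusted p = 0.029). That call was lost with no filter (0.082), with only the groups compared (0.053), and without chrysin library 3 (0.12) or high glucose library 1 (0.10) or 3 (0.074). All 3 tested hosts of Cajal body RNAs, SNHG10, SNHG20 and SNHG21, were called higher with chrysin, beside 24.9% of all genes tested. Of these calls only that of SNHG10 held in every alternative, and 3 genes are too few to describe the class.

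SNHG32 was close to the threshold with chrysin. It stood at 15.8, 17 and 17.4 FPKM in high glucose and at 14.4, 16.2 and 14.3 with chrysin (-0.15, adjusted p = 0.053), and was called lower with median-of-ratios scaling (0.025), with a mean of at least 5 FPKM (0.041), and without chrysin library 2 (0.015) or high glucose library 1 (0.024). SNHG15, SNHG8 and SNHG5, which had fallen in high glucose, passed no test between chrysin and high glucose. SNHG15 stood at 15.1, 15.6 and 16 FPKM with chrysin (adjusted p = 0.96), SNHG8 at 11.5, 9.74 and 9.81 (0.84) and SNHG5 at 14.6, 15.7 and 16.6 (0.93), each overlapping its high glucose values. ZFAS1 stood at 18.1, 16.8 and 17.7 FPKM with chrysin (adjusted p = 0.25) and SNHG30 at 5.90, 6.37 and 6.99 (adjusted p = 0.33).

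**Figure D4:**
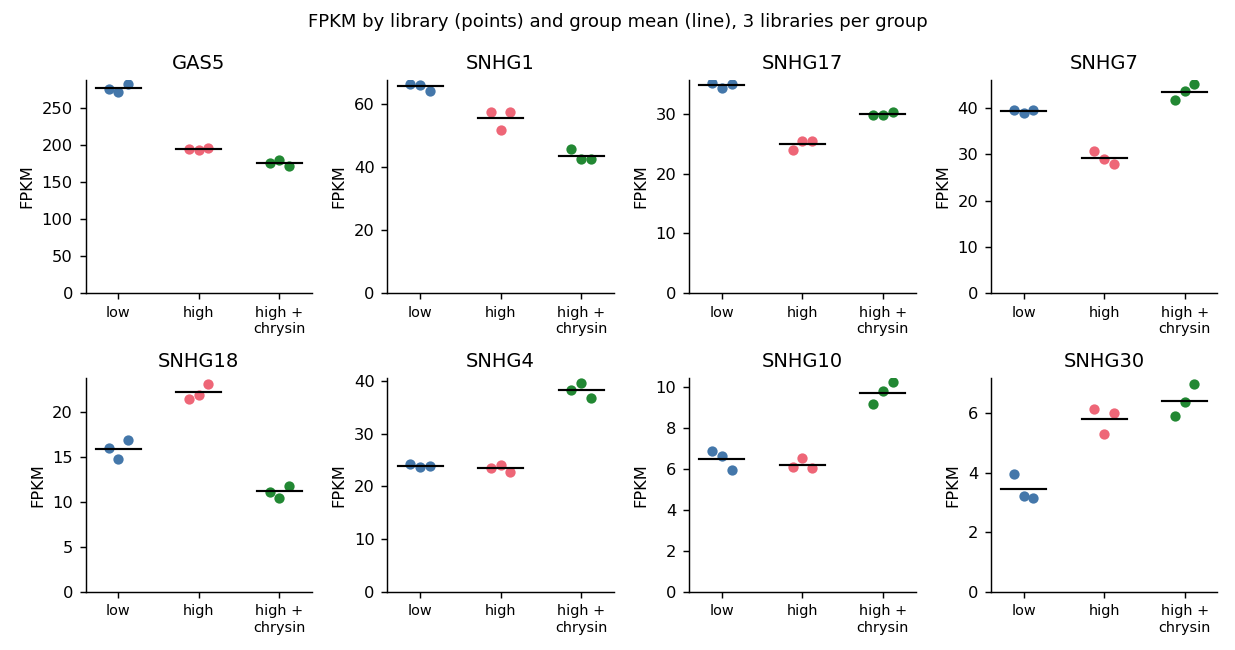
FPKM of 8 host genes by group, with 1 point per library and a line at the group mean, on axes that start at 0. GAS5 and SNHG1 step down from group to group, SNHG17 and SNHG7 are lowest in high glucose (24.0 to 25.5 and 27.8 to 30.8 FPKM), SNHG18 is highest there (21.5 to 23.2), SNHG4 and SNHG10 are high with chrysin (36.8 to 39.7 and 9.16 to 10.2), and SNHG30 is low in low glucose (3.14 to 3.97).

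The last comparison set chrysin in high glucose against low glucose. Here 7 members were higher and 9 were lower, 57.1% of the 28, where 51% of all genes were called (29.7% higher and 21.3% lower). With the filter at 5 FPKM, 6 of 24 members were higher and 9 lower, beside 3830 and 3093 of 10414 genes. The members' median was 0.01 beside 0.05 over all genes. Groups did not overlap in 16 members, and in 60% of all genes. With median-of-ratios scaling the split was 4 higher and 10 lower, and 4 were higher without chrysin library 2 or 3 or low glucose library 2 or 3. Of the 11 fibroblast markers 10 were lower and 1 higher in this comparison, and their part was not tested. GAS5 differed most among the members that were lower, at 1.57-fold higher in low glucose (-0.65, SE 0.03, adjusted p = 2.2e-08). SNHG1 (-0.58, adjusted p = 2.8e-06), SNHG32 (-0.55, adjusted p = 1.9e-05), SNHG18 (-0.49), SNHG15 (-0.45), SNHG8 (-0.43), SNHG5 (-0.30), SNHG29 (-0.27) and SNHG17 (-0.21) were the other 8 that were lower. These 9 calls held in every alternative run. Of those higher, SNHG30 (0.82, adjusted p = 7.8e-05), SNHG4 (0.67, adjusted p = 5.1e-07), SNHG9 (0.64, adjusted p = 0.0061) and SNHG10 (0.55, adjusted p = 0.00012) held in every alternative in which they were tested.

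The other 3 rises over low glucose were less stable. SNHG7 (0.14, adjusted p = 0.023) was lost with median-of-ratios scaling (0.15) and without chrysin library 2 (0.061) or 3 (0.093) or low glucose library 1 (0.052), 2 (0.066) or 3 (0.051). SNHG3 (0.12, adjusted p = 0.026) was lost with that scaling (0.19) and without chrysin library 1 (0.054), 2 (0.057) or 3 (0.073) or low glucose library 2 (0.10) or 3 (0.087). SNHG20 (0.29, adjusted p = 0.049), whose groups overlapped, was lost with that scaling (0.10), with no filter (0.10), with only the groups compared (0.055), with the replicate number as a block (0.074) and without chrysin library 2 (0.16) or 3 (0.13), high glucose library 2 (0.054) or 3 (0.061), or low glucose library 2 (0.18) or 3 (0.071). Conversely ZFAS1 was called lower with median-of-ratios scaling (adjusted p = 0.025, and 0.11 as deposited), and SNHG6 was called higher without chrysin library 1 (0.022, and 0.16 with all libraries).

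Across the 3 comparisons 21 of the 28 members were called at least once, 75% beside 62.6% of all genes tested. The shares over all genes in this paragraph include many weakly expressed ones. With the filter at 5 FPKM, 1517 of 10414 genes were lower and 2459 higher in high against low glucose. For calls over all 3 comparisons no share with that filter was computed. The members called in all 3 numbered 7, 25% beside 10.1% of all genes: GAS5, SNHG1 and SNHG29 were lower each time, and SNHG7, SNHG17, SNHG18 and SNHG3 changed direction between the comparisons. The 7 called in none were SNHG11, SNHG14, SNHG19, SNHG25, SNHG26, SNHG31 and EPB41L4A-AS1. SNHG14 ran from 5.17 to 6.19 FPKM over the 9 libraries (521 to 701 reads), SNHG26 from 16.7 to 19.2, SNHG11 from 4.29 to 5.90 and SNHG19 from 29.6 to 39.6, with overlapping groups in each. EPB41L4A-AS1, host of SNORA13, stood at 9.78, 11.7 and 9.86 FPKM in low glucose and just below at 9.72, 8.94 and 8.13 in high glucose, with no overlap and an adjusted p of 0.12. SNHG25 and SNHG31 had 4 to 15 and 7 to 36 reads per library. By the start of the transcript, 4 of the 9 members with a pyrimidine run fell in high glucose and 1 rose. Of the 15 tested members whose start shows none, 6 fell and 2 rose, where 8.91% of all genes were lower and 14.6% higher. The split rests on the first base annotated in RefSeq. It puts GAS5, SNHG16, SNHG29 and SNHG21, whose windows hold CTTTT, among the 15, and GAS5 has shorter transcripts with another start.

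Several hosts start close to a protein-coding gene on the other strand, and the values of both are set side by side. SNHG1 starts 188 bases from SLC3A2, which encodes the heavy chain of amino acid transporters. SLC3A2 stood at 396, 407 and 399 FPKM in low glucose, at 254, 234 and 240 in high glucose and at 218, 217 and 202 with chrysin. It fell by more than SNHG1 in high glucose (-0.72, adjusted p = 6.8e-07, beside -0.24) and by less with chrysin (-0.19, adjusted p = 0.0016, beside -0.34), and the difference between the 2 genes was not tested. SNHG18 starts 125 bases from SEMA5A, a semaphorin. SEMA5A stood at 18.8, 17.3 and 17.6 FPKM in low glucose, at 14.9, 18.5 and 19.8 in high glucose and at 5.86, 7.37 and 7.02 with chrysin. SNHG18 and SEMA5A were thus both lower with chrysin than in high glucose (SEMA5A -1.33, SE 0.11, adjusted p = 3.7e-06), and SEMA5A did not pass the test between high and low glucose (-0.02, adjusted p = 0.91), where SNHG18 rose.

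For the other pairs, too, no difference between the genes was tested. ZNFX1, a helicase-like zinc finger gene that starts 248 bases from ZFAS1 and overlaps it, rose in high glucose from 38.4, 38.1 and 37.8 FPKM to 47.5, 51.6 and 50.8 (0.39, adjusted p = 6.5e-05), while ZFAS1 fell. RPS2, a ribosomal protein gene 99 bases from the start of SNHG9, was at 2258, 2078 and 2103 FPKM in the means of low glucose, high glucose and chrysin, with no call for chrysin against high glucose (0.02, adjusted p = 0.69). Its fall in high against low glucose (-0.12, adjusted p = 0.028) was lost with no filter (0.11) and without high glucose library 2 (0.094) or 3 (0.086) or low glucose library 1 (0.080), 2 (0.059) or 3 (0.073). TRAF7, 340 bases from SNHG19, had 207 ± 5.5 FPKM with chrysin against 145 ± 7.3 in high glucose (SD, n = 3; a rise of 0.51, adjusted p = 3.6e-06), whereas SNHG19 did not pass the test (adjusted p = 0.28). BARD1, 518 bases from SNHG31, was called in none of the 3 comparisons. Of genes that overlap a member on the other strand, TRNAU1AP (SNHG12) went from 24.5 FPKM down to 20.3 with chrysin (-0.27, adjusted p = 0.0071) while SNHG12 rose, and LRRC75A (SNHG29) was called in none of the comparisons. DIPK1B (SNHG7) went from 1.58 to 1.09 FPKM with chrysin (-0.38, adjusted p = 0.045) while SNHG7 rose. That call of DIPK1B was lost with no filter (0.11) and in several other alternatives.

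**Figure D5:**
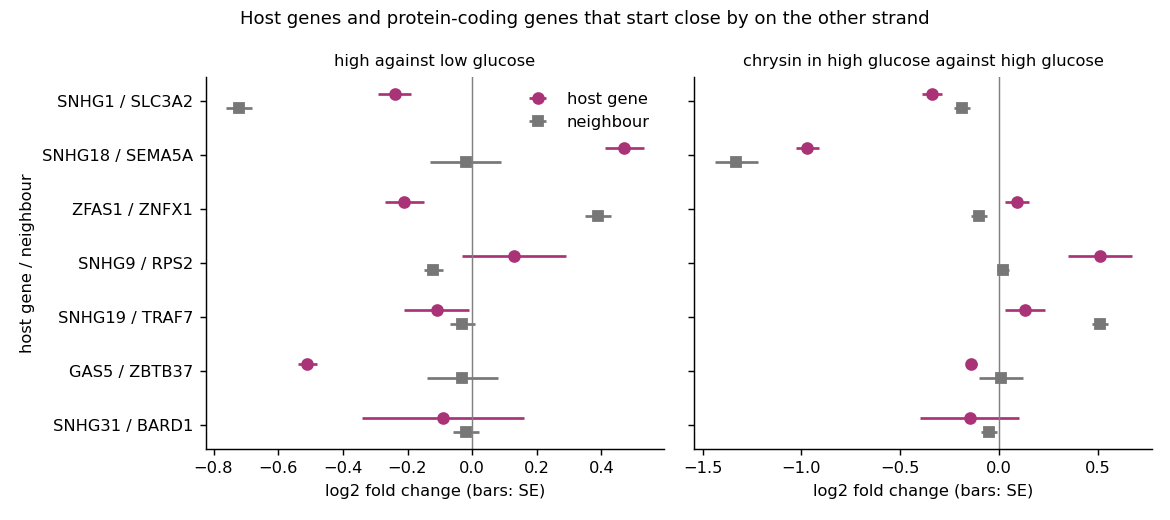
Log2 fold change with its SE of 7 host genes (circles) and of the protein-coding gene that starts within 1000 bases on the other strand (squares), in high against low glucose and in chrysin against high glucose. SLC3A2 (-0.72) and SNHG1 (-0.24) lie on the same side of 0 in the left panel, ZNFX1 (0.39) and ZFAS1 (-0.21) on opposite sides, and SEMA5A (-1.33) and SNHG18 (-0.97) are both far below 0 in the right panel.

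The snoRNAs themselves were hardly seen. Of the 146 held by members, 135 have a row in the table and 13 of these were above 0 in any library, with at most 42 reads. PolyA libraries are not made to capture these short RNAs, which lack a polyA tail. How reads shared by a snoRNA and an exon of its host were assigned is unstated, and the part of either was not tested. SNORD123, the C/D snoRNA within SNHG18, is shown as an example (chr5:9548836-9548905, plus strand, GENCODE 29), with box C (TGATGA) and box D (CTGA) in capitals.
SNORD123: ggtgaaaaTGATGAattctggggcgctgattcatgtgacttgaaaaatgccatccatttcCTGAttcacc
Of the 13, 9 passed the filter on low values, and their 9 calls over the 3 comparisons held in every alternative in 5 cases. SNORD123 had 17, 9 and 6 reads in low glucose, 10, 9 and 5 in high glucose and 4, 2 and 5 with chrysin. Chrysin and high glucose thus met at 5 reads, in libraries of unlike depth. In FPKM they did not overlap, at 7.02, 5.58 and 3.67 in high glucose and 3.12, 1.53 and 3.22 with chrysin. The difference of SNORD123 with chrysin (-0.93, SE 0.33, adjusted p = 0.040) was lost with limma voom (0.17), with no filter (0.11), and without high glucose library 1 (0.13) or 2 (0.097), chrysin library 2 (0.15) or low glucose library 2 (0.053). SNORA71B, within SNHG17, had 18, 33 and 19 reads in high glucose and 39, 38 and 30 with chrysin (0.68, adjusted p = 0.039), which overlapped. That call was lost with limma voom (0.064), with no filter (0.11), and without high glucose library 1 (0.13) or 3 (0.10), chrysin library 1 or 2 (both 0.12) or low glucose library 1 (0.052). SNORA73B, within SNHG3, had 40, 42 and 33 reads and then 24, 20 and 30 (-0.52, adjusted p = 0.029), lost with limma voom (0.097), with no filter (0.082), and without high glucose library 1 (0.086) or 2 (0.067) or chrysin library 2 (0.10).

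Calls of SNORD104 and SNORD93 held in every alternative in which they were tested, again on few reads. SNORD104, within SNHG25, had 9, 13 and 19 reads in high glucose and 4, 4 and 5 with chrysin (-1.38, adjusted p = 0.00079), beside 4 to 15 reads of SNHG25. SNORD93, within SNHG26, had 12, 10 and 14 reads in low glucose and 5 in each high glucose library (-1.24, adjusted p = 0.0032), while SNHG26 passed no test. In chrysin against low glucose SNORD104 (-1.62), SNORD123 (-1.36, adjusted p = 0.0057) and SNORD93 (-1.32) were lower. SNORD99, within SNHG12, was higher there, with 4, 0 and 1 reads in low glucose and 12, 6 and 3 with chrysin (1.94, adjusted p = 0.020), a call lost with no filter (0.066) and without chrysin library 1 (0.080) or low glucose library 2 (0.071). Whether these reads came from snoRNAs or from unspliced host RNA cannot be told apart in this table.

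Context came from other genes of the same machinery, whose counts can be read against all genes tested: 14.6% higher and 8.91% lower in high against low glucose, and 24.9% higher and 20.9% lower in chrysin against high glucose. Of 153 tested genes other than the members that hold a snoRNA on the same strand in GENCODE 29, 31 were lower (20.3%) and 31 higher (20.3%) in high glucose, with a median of -0.04. Over the alternatives 21 to 43 were lower and 22 to 33 higher, so the even split depends on the setting. With chrysin against high glucose 27 were lower (17.6%; 23 to 31 over the alternatives) and 53 higher (34.6%; 43 to 57), with a median of 0.05. TAF1D, a subunit of the RNA polymerase I selectivity factor, was among those lower in high glucose (-0.42, adjusted p = 5.5e-05), as was the translation initiation helicase EIF4A2 (-0.37, adjusted p = 6.1e-05). The chaperone gene HSPA8 (0.22) and CCAR1 (0.35) were higher. RBMX (-0.53) and SF3B3 (-0.43), of splicing, fell with chrysin, and the helicase DDX39B (0.58) and the import receptor IPO7 (0.54) rose.

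Messages of translation factors and other TOP genes outside the ribosomal proteins fell in 8 of 20 cases (40%) in high glucose (median -0.08; 4 to 13 over the alternatives), among them the elongation factors EEF2 (-0.19) and EEF1A1 (-0.11) and the polyA-binding protein PABPC1 (-0.15). The call of EEF1A1 was lost with no filter (adjusted p = 0.052). With chrysin 8 of these rose (40%) and 7 fell (35%), HNRNPA1 with the smallest p, from 1102 to 575 FPKM (-0.94, adjusted p = 4.4e-09). Factors of nonsense-mediated decay were higher in 9 of 20 cases (45%) and lower in 4 (20%) in high glucose (median 0.04; 7 to 9 higher and 0 to 7 lower over the alternatives), and rose in 8 (40%) and fell in 5 (25%) with chrysin (median 0.07). UPF1, the central helicase of that pathway, had means of 68.2, 77.0 and 94.1 FPKM in low glucose, high glucose and chrysin (0.17, adjusted p = 0.0019, and 0.29, adjusted p = 1.9e-05). EIF4A3 (0.31) and RBM8A (0.27), of the exon junction complex, rose in high glucose, and CASC3 (-0.48), of the same complex, fell with chrysin.

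Proteins that bind and assemble snoRNAs had 2 of 20 members (10%) higher in high glucose (1 to 4 over the alternatives, the count moving by over 1.5 times with median-of-ratios scaling and without high glucose library 3 or low glucose library 3): RUVBL1 (0.17, adjusted p = 0.012), an assembly ATPase, and TCOF1 (0.11, adjusted p = 0.017), whose call was lost with median-of-ratios scaling (0.060) and without low glucose library 3 (0.068). With chrysin 6 rose (30%) and 2 fell (10%). NOLC1, a chaperone of snoRNA particles, rose from 96.8 to 130 FPKM (0.43, adjusted p = 6.3e-07), while FBL, the methyltransferase of C/D snoRNA particles, fell from 261 to 208 (-0.32, adjusted p = 3.4e-05) and TCOF1 fell by 0.36. Genes of ribosome production and RNA polymerase I fell in 8 of 25 cases (32%) and rose in 1 in high glucose (2 without high glucose library 3; median -0.11), MYC (-0.72) with the smallest p. With chrysin 19 of the 25 rose (76%) and 2 fell (8%; median 0.23), among them BOP1 (0.52), RRP12 (0.49) and the polymerase subunits POLR1A (0.53) and POLR1D (0.52).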

How the data were processed

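Polyadenylated RNA of 9 libraries was compared. Per the submitters' processing notes the tools were fastp 0.23.4, HISAT2 2.2.1, StringTie 2.2.1 and HTSeq 0.13.5 on hg38, with no role given for any. The annotation release, the strand setting and the handling of reads in overlapping genes are unstated there. The deposited values were taken as FPKM from their size and steps, as the header does not name a unit. Every gene above 0 in at least 2 libraries (28230) had values that were whole multiples of its own step, to within 4.3e-05 reads, so relative whole reads could be recovered, known only up to a shared factor. Each row was tested as its own gene, also where names repeat (1094 rows).

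Values were tested as log2(FPKM + 0.5), which understates changes of low genes. The fit used limma 3.58.1 (R 4.3.3) with a trend of variance on mean, group means and no other term, for the 16996 genes whose mean reached 0.5 FPKM in some group. Contrasts were two-sided with Benjamini-Hochberg adjustment over those genes. The procedure was first run on simulated reads with a fixed spread between libraries. Changes were put only into genes with many reads, so that run does not cover members or snoRNAs on few reads. An exact permutation test of 3 against 3 libraries cannot reach 0.05, so none was run for single genes. Positions, neighbours and the other hosts came from GENCODE 29, in which all 31 members were found, and starts and held snoRNAs (by position within the span, without strand) from RefSeq GRCh38.p14.

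Values of every library are given for members called at least once and for the 5 highest. From each context list up to 4 genes with the smallest p are named. Members and lists were chosen with earlier results of these data known. The settings varied were the pseudocount (0.1 or 1), the filter (absent, or 5 FPKM), the scaling (median of ratios), a block for the replicate number, the test (limma voom on recovered reads), the groups fitted, and each library left out.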

Additional observations from a re-analysis of the deposited data

How the results depend on the processing

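Of 1065 refits of single members (21 members in 3 comparisons under 17 alternatives, where tested), 998 kept direction and side of the threshold, 50 lost a call, 6 gained one and 11 changed sign; those that changed sign had passed no test in the comparison concerned. These were SNHG15 (-0.02), SNHG8 (-0.01) and SNHG5 (-0.02) in chrysin against high glucose and SNHG16 (-0.03) in chrysin against low glucose, all with median-of-ratios scaling. Over the refits without 1 library the values ran from -0.03 to 0.03 for SNHG15, -0.05 to 0.06 for SNHG8 and -0.08 to 0.07 for SNHG5 in chrysin against high glucose, from -0.04 to 0.27 for SNHG9 in high against low glucose, and from -0.001 to 0.34 for SNHG21 in chrysin against low glucose. Counts of members over the refits without 1 library ran from 9 to 11 lower and stayed at 3 higher in high against low glucose, from 6 to 10 higher and 4 to 6 lower in chrysin against high glucose, and from 4 to 7 higher and 9 lower in chrysin against low glucose. With median-of-ratios scaling 4 were higher in the last comparison. Libraries with the same number did not deviate together (correlations from -0.02 to 0.01 over all genes tested), so the numbers were not taken as pairs. With the replicate number as a block 11 members were lower and 3 higher in high against low glucose, 10 higher and 5 lower in chrysin against high glucose, and 6 higher and 9 lower in chrysin against low glucose. Running the same alternatives for called values of other genes was chosen after seeing the data: 16 of 21 calls of neighbours, 5 of 9 of held snoRNAs, 19 of 20 of cell type markers and 55 of 57 of genes from the context lists held in every one. The cause of these differences was not tested. SNHG9, SNHG21, SNHG25 and SNHG31 rested on at most 40 reads per library; detection against depth was not tested.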
